A study of Homo sapiens with 12 samples.

Results

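JS-K, a prodrug that reacts with glutathione and releases nitric oxide inside cells, was given to U937 cells for 90 min, and the RNA of 3 such cultures was compared with that of 3 cultures given the DMSO vehicle. These 6 arrays were chosen by their sample titles from a series of 12, in which the other arrays hold cells after 4 h and 24 h of JS-K. U937 is a single human cell line of myelomonocytic leukemia, grown here in RPMI medium with serum, and the titles call the 3 samples of each group biological replicates. The labels give neither the dose of JS-K nor the time for which the vehicle cells were exposed, and 1 vehicle group serves all times, so JS-K and time in culture cannot be told apart. The comparison covered 19775 genes, with the weight on those outside the immediate early and cholesterol groups.

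As background, a stress or a growth signal reaches the nucleus first through transcription factors that are already present, which switch on immediate early genes such as FOS, JUN and EGR1. The products of those genes, together with factors such as NF-kB, SRF and CREB, act on secondary targets that include chemokines, proteases and the inhibitors that shut signalling down again. In a monocytic cell the same programme includes receptors for bacterial peptides, complement and antibodies, while electrophiles and oxidants release the factor NRF2 and induce heme oxygenase and glutathione genes.

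The arrays of both groups were alike in their quality measures. The median log2 level of an array was 2.87 to 2.89 in vehicle and 2.84 to 2.91 at 90 min. The hybridization spikes averaged 9.96 in vehicle and 10.03 at 90 min. The poly-A spikes, control RNAs of bacterial origin, had a mean of 3.04 in the vehicle group and 3.08 after 90 min. Both means lie close to the array medians, in low signal, so their likeness says little about the labelling. The poly-A mean was 7.02 after 4 h and 8.47 after 24 h. Correlations over probe sets were 0.996 to 0.998 within the 2 groups and 0.992 to 0.995 between them. Of 15 measured markers of a myeloid leukemia line, 13 had a mean of at least 4 in both groups, and MPO and FCGR1A lay under 4. The summed log2 level of that list was 139.4 to 141.3 on the vehicle arrays and 141.1 to 142.5 on the JS-K arrays. Markers of T and B cells reached 4 for 1 of 8 genes, those of erythroid cells and platelets for 1 of 7 and those of epithelial and stromal cells for 1 of 11. Their summed levels were 22.3 to 22.4, 20.3 to 20.9 and 29.6 to 30.3 on the vehicle arrays against 22.0 to 22.3, 19.9 to 20.3 and 30.4 to 30.7 on the JS-K arrays. Any part of these other cell types in the results was not tested, and in RNA pooled from a culture a change in the share of cells and a change in RNA per cell cannot be told apart.

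At 90 min, 796 genes were higher and 1111 were lower than in vehicle at a Benjamini-Hochberg adjusted p under 0.05 in limma, which is 4.03% and 5.62% of the genes tested. A change of at least 2-fold was found for 120 of the higher genes (0.607% of all genes) and 156 of the lower genes (0.789%). Many changes were therefore small, but the rises reached further, up to 24.6-fold against a largest fall of 5.41-fold. Among the 9551 genes with a mean level of at least 4, 8.05% were higher and 10.5% were lower. The shares over all genes and over genes at this level are the background for the list counts below. The JS-K arrays all lay on 1 side of the vehicle arrays for 5328 genes (26.9%), called or not. A level under 4 is low signal close to the array medians, so the size of a difference with 1 end there is uncertain. The count of lower genes was the less stable: it was 715 without vehicle replicate 3, 631 without JS-K 90 min replicate 2, 622 after subtraction of array medians and 1736 when the 6 arrays were fitted alone with the replicate number as a block. Beside those 1736 lower genes the blocked fit called 1162 higher.

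**Figure D1:**
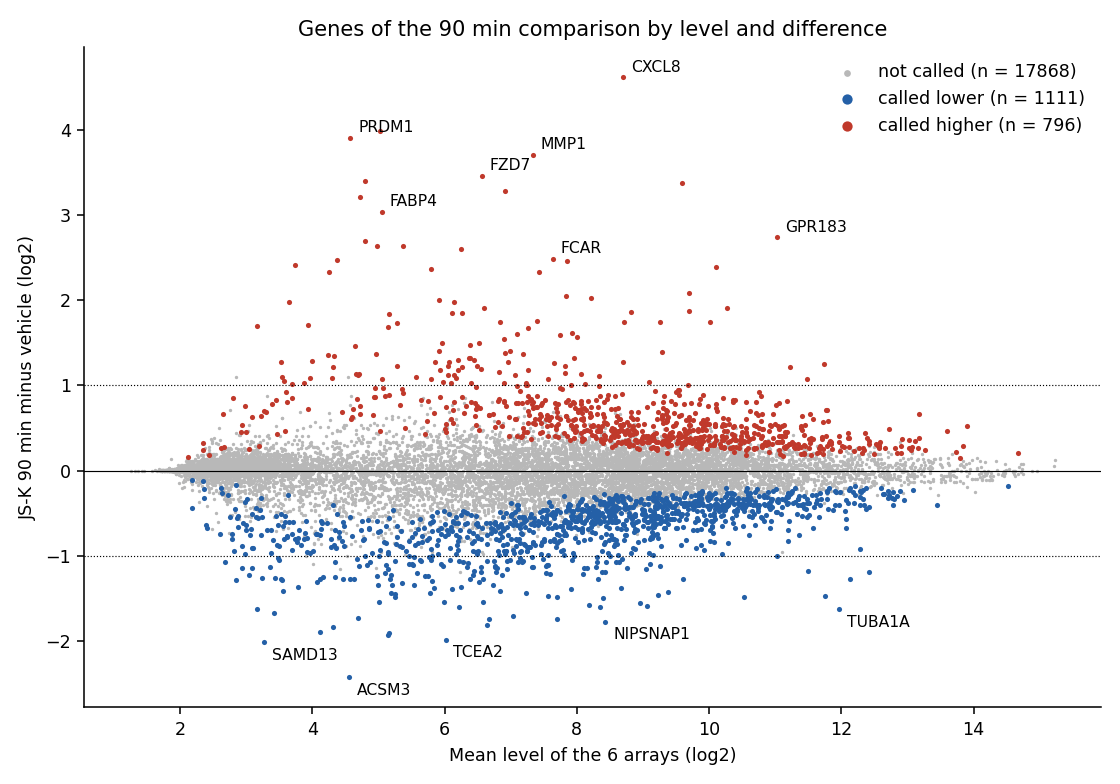
Difference between JS-K 90 min and vehicle (log2, y axis) against the mean level of the 6 arrays (log2, x axis) for 19775 genes, with 796 genes called higher in red, 1111 called lower in blue and the others in grey. Dotted lines mark a 2-fold difference. The rises extend to 4.62 for CXCL8, while the falls end at −2.43 for ACSM3.

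Some of the strongest rises are shown here by their promoters, because short motifs differed in frequency between genes that rose and other genes. Each line gives the 250 bases that end just before the gene start, 5′ to 3′ on the gene's strand, from the RefSeq promoter table of GRCh38.p14. Capitals mark matches to an AP-1 site (TGANTCA), a cyclic AMP element (TGACGTCA), the TATA box (TATAAA), a CArG box, which is the core of the serum response element, or an NF-kB site, each searched on both strands. Only letters that fit a pattern in full are marked, so a site that differs from it, such as a variant NF-kB site in CXCL8, stays in lower case. Matches did not separate rises from falls gene by gene. Among the 15 largest rises 8 had a promoter in the table and 5 of them a match, while PRDM1, MXD1 and C5AR1 had none. Among the 15 largest falls 11 had a promoter and 1 of them, OLMALINC, a non-coding RNA, had an AP-1 match. PRDM1 is shown as a rise without a match, OLMALINC as the fall with one, and TUBA1A, an alpha-tubulin gene, as a fall without one. DUSP1 is not among the 15 largest rises and is shown as a further rise with matches. Of the other rises outside the 15 that were looked up, FOS and PLAUR had a match, while JUN, ATF3, KLF6, CDKN1A and HBEGF had none.
CXCL8, chr4:73740319-73740568, plus strand: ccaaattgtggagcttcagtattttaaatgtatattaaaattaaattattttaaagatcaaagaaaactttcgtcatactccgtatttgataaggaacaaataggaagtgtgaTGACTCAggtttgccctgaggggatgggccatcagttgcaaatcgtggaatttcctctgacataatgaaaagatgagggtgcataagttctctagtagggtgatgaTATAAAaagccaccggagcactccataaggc
GPR183, chr13:99307400-99307649, minus strand: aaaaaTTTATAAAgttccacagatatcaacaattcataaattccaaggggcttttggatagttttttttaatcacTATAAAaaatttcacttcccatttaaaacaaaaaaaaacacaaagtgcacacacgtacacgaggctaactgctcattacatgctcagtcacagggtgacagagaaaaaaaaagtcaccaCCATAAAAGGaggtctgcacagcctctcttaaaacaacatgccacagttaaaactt
EMP1, chr12:13196476-13196725, plus strand: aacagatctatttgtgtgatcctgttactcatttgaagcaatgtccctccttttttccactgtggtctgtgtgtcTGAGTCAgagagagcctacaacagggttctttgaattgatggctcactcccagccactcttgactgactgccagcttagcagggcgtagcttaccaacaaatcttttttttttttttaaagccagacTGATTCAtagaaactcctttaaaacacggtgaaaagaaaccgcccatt
RGS1, chr1:192575523-192575772, plus strand: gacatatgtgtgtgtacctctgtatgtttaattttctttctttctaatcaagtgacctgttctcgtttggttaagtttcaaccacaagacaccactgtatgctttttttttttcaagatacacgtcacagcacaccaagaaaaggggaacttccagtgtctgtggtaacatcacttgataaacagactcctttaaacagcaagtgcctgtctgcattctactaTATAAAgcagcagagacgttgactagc
DUSP1, chr5:172771196-172771445, minus strand: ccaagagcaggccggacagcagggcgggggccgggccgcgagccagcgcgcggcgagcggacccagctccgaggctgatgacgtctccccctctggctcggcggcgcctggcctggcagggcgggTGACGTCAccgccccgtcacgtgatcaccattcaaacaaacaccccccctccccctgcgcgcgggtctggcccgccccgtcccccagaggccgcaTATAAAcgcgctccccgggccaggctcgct
PRDM1, chr6:106086086-106086335, plus strand: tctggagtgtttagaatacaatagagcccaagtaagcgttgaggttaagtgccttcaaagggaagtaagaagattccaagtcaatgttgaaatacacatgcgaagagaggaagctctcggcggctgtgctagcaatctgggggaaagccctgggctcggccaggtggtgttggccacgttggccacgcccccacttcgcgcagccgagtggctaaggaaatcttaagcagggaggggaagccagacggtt
OLMALINC, chr10:100373326-100373575, plus strand: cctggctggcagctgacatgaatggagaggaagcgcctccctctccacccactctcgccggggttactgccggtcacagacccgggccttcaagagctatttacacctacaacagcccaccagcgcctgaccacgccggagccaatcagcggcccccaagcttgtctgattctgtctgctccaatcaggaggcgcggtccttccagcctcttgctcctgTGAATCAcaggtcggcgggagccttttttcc
TUBA1A, chr12:49189081-49189330, minus strand: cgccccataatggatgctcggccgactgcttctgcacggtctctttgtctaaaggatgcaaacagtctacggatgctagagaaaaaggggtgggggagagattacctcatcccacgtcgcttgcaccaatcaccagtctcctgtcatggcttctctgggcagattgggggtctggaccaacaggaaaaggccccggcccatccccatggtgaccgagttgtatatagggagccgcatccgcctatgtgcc

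In CXCL8 the AP-1 match spans bases −137 to −131 and the TATA match bases −31 to −26, counted back from the start. RGS1 and DUSP1 also have a TATA match close to the start, at −27 to −22 and −30 to −25, and DUSP1 has a cyclic AMP element at −125 to −118. GPR183 has a CArG box at −56 to −47 and TATA matches only farther upstream, 1 pair of them overlapping on opposite strands. EMP1 holds AP-1 matches at −175 to −169 and −48 to −42.

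Over all genes with a mean of at least 4, 7952 of 9551 had a promoter in the table, and the first start listed was used for each. The groups at least 2-fold higher or lower were not limited to genes outside the immediate early and cholesterol lists. A TATA box occurred in 17 of the 85 promoters (20%) of genes at least 2-fold higher, in 4.67% of the 107 of genes at least 2-fold lower and in 4.78% of all 7952. An AP-1 site occurred in 11 of the 85 (12.9%), in 1.87% and in 3.5%, and a cyclic AMP element in 7 of the 85 (8.24%), in 0.935% and in 3.17%. An ETS site (CCGGAAG) went the other way, in 2.35% of the promoters of genes at least 2-fold higher against 10.3% and 18%. Over the 630 promoters of all genes called higher, of any size, the shares lay much closer to those of all genes, at 7.62% for the TATA box, 5.87% for AP-1, 3.49% for the cyclic AMP element and 14% for ETS. The NF-kB site was found in 4.71%, 5.61% and 6.12%, and the antioxidant response element (TGACNNNGC), the DNA element of NRF2, in 11.8%, 13.1% and 12.4%. In the whole table of 27305 promoters the shares were 11.1% for the TATA box, 6.6% for AP-1, 1.77% for the cyclic AMP element, 8.82% for ETS, 5.05% for NF-kB and 11% for the antioxidant element. Of the 14 motifs searched, the cell cycle homology region (TTTGAA), which is not marked above, also had a raised share. It was found in 19 of the 85 promoters (22.4%), in 5.61% and in 8.54%. Over all genes called higher it stood at 14.1%, and in the whole table at 13.6%. A match is a description of letters and does not show that a factor binds there. Base composition moved with these shares: the median GC content was 58% upstream of the genes at least 2-fold higher, 65.6% upstream of those at least 2-fold lower and 65.2% over all. Its part in the motif shares was not tested.

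**Figure D2:**
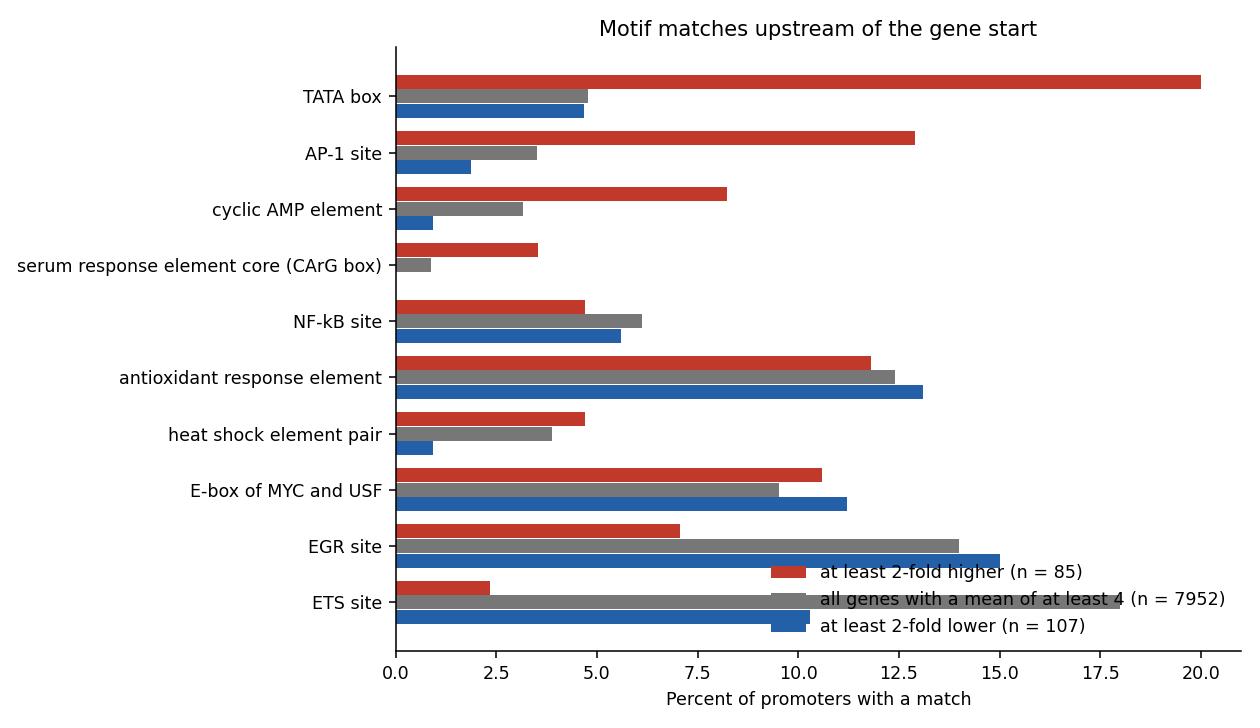
Percent of promoters with a match (x axis) to each of 10 of the 14 motifs searched. Red marks genes at least 2-fold higher (n = 85), grey all genes with a mean of at least 4 (n = 7952) and blue genes at least 2-fold lower (n = 107). The TATA box stands at 20% in red against 4.78% in grey, and the ETS site at 2.35% against 18%.

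Among chemoattractants CXCL8, CXCL2 and CCL2 rose. CXCL8, interleukin-8, the chief attractant of neutrophils, measured 6.38, 6.33 and 6.47 in vehicle and 11.06, 10.98 and 11.01 at 90 min. The groups lay far apart, with a difference of 4.62 ± 0.06 (log2 ± SE, n = 3 and 3, adjusted p = 2.36e-13, limma). CXCL2, a related neutrophil attractant, went from 3.77, 4.45 and 3.94 to 6.63, 6.87 and 6.58 (2.64 ± 0.19). CCL2, which attracts monocytes, went from 8.29, 8.41 and 8.43 to 10.21, 10.08 and 10.1 (1.75 ± 0.07). These 3 were the called genes among 36 measured chemokines, of which 6 had a mean of at least 4. Neither of the other 2 probe sets of CXCL2 was called.

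Several receptors of chemoattractants rose, though most chemokine receptors did not pass the test. C5AR1, the receptor of complement fragment C5a, measured 3.16, 3.17 and 2.92 in vehicle and 5.35, 5.28 and 5.63 at 90 min (2.33 ± 0.15). FPR2, a receptor of formylated peptides and resolving lipids, went from 4.65, 4.73 and 5.38 to 6.51, 7.07 and 7.19 (2.00 ± 0.21, adjusted p = 7.96e-05, limma). CCR1, a receptor of inflammatory CC chemokines, rose by 1.67 ± 0.13 and CXCR4, the receptor of CXCL12, by 0.35 ± 0.04. Among 20 chemokine receptors 3 were called higher and none lower, the last being CCR2, whose difference of 0.16 ± 0.03 lay at levels of 2.01 to 2.24, in low signal. GPR183, which guides immune cells along oxysterol gradients, was already abundant at 9.73, 9.8 and 9.46 and reached 12.28, 12.49 and 12.42, with a difference of 2.74 ± 0.09. RGS1, which ends signalling by such receptors, measured 4.41, 4.8 and 4.62 in vehicle and 7.07, 6.9 and 6.97 at 90 min (2.37 ± 0.13).

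The wider list of monocyte and macrophage surface genes had 17 of 48 measured members higher and 2 lower, with a median difference of 0.13 against 0.01 over all genes. The lower count was 0 without vehicle replicate 3 or JS-K 90 min replicate 1, and 1 without any 1 of the other 4 arrays. FCAR, the receptor for immunoglobulin A, measured 6.63, 5.89 and 6.66 in vehicle and 8.65, 9.06 and 8.92 at 90 min. The arrays did not overlap, the difference was 2.49 ± 0.18, and 3 of its 4 other probe sets were called in the same direction. HLA-DRA, the alpha chain of a class II antigen-presenting molecule, went from 4.95, 4.85 and 5.05 to 7.51, 7.5 and 7.64 (2.60 ± 0.24), and its other probe set was also called higher. Cytokine receptors moved in the same direction, with 9 of 41 measured genes of the interleukin receptor family higher and 1 lower, the latter lost without any 1 of vehicle replicates 2 and 3 or the 3 JS-K arrays. The 4 with the largest rises were IL22RA2, a soluble receptor that blocks interleukin-22 (1.36 ± 0.20), IL10RA, the receptor chain of the anti-inflammatory interleukin-10 (1.32 ± 0.16), IL1RN, the interleukin-1 receptor antagonist (1.19 ± 0.16), and IL18RAP (0.85 ± 0.17, with all levels under 4). IL6R, the receptor of interleukin-6, rose by 0.65 ± 0.07. None of 29 integrins was called in either direction in limma, with a median of 0.01. At an unadjusted p under 0.05 in limma, 0 were higher and 0 lower. Only 14 of the 29 had a mean of at least 4. Among all genes under that level few were called, 0.264% higher and 1.02% lower.

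Some granule and oxidase genes rose as well. In the list of S100 proteins and the phagocyte oxidase, 5 of 13 rose and none fell. S100A8 measured 8.02, 7.78 and 7.71 in vehicle and 9.75, 9.44 and 9.58 at 90 min (1.75 ± 0.14), and its partner S100A9 in the antimicrobial complex calprotectin rose by 1.11 ± 0.11. CYBB, the catalytic subunit of the oxidase, rose by 1.28 ± 0.24. Among azurophil granule proteins 4 of 14 were higher and none lower, among them CTSG, cathepsin G, with 0.47 ± 0.06. That count was 2 after subtraction of array medians and without any 1 of vehicle replicates 1, 2 and 3 or JS-K 90 min replicates 2 and 3. With the 6 arrays alone 3 were lower, as were 2 without replicate 2 of the 4 h group and 1 without vehicle replicate 1. HP, which encodes the hemoglobin scavenger haptoglobin and has a near-identical neighbour in HPR, went from 3.37, 3.45 and 3.53 to 6.12, 6.3 and 6.04 (2.70 ± 0.22). Eicosanoid and sphingolipid enzymes were split, 2 of 27 higher and 2 lower, with 1 lower without vehicle replicate 1, JS-K 90 min replicate 2 or JS-K 90 min replicate 3. Thromboxane synthase TBXAS1 rose by 0.94 ± 0.09 and ALOX5AP, which presents substrate for leukotriene synthesis, by 0.70 ± 0.07, while LTA4H, the last enzyme toward leukotriene B4, fell by 0.59 on the log2 scale.

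**Figure D3:**
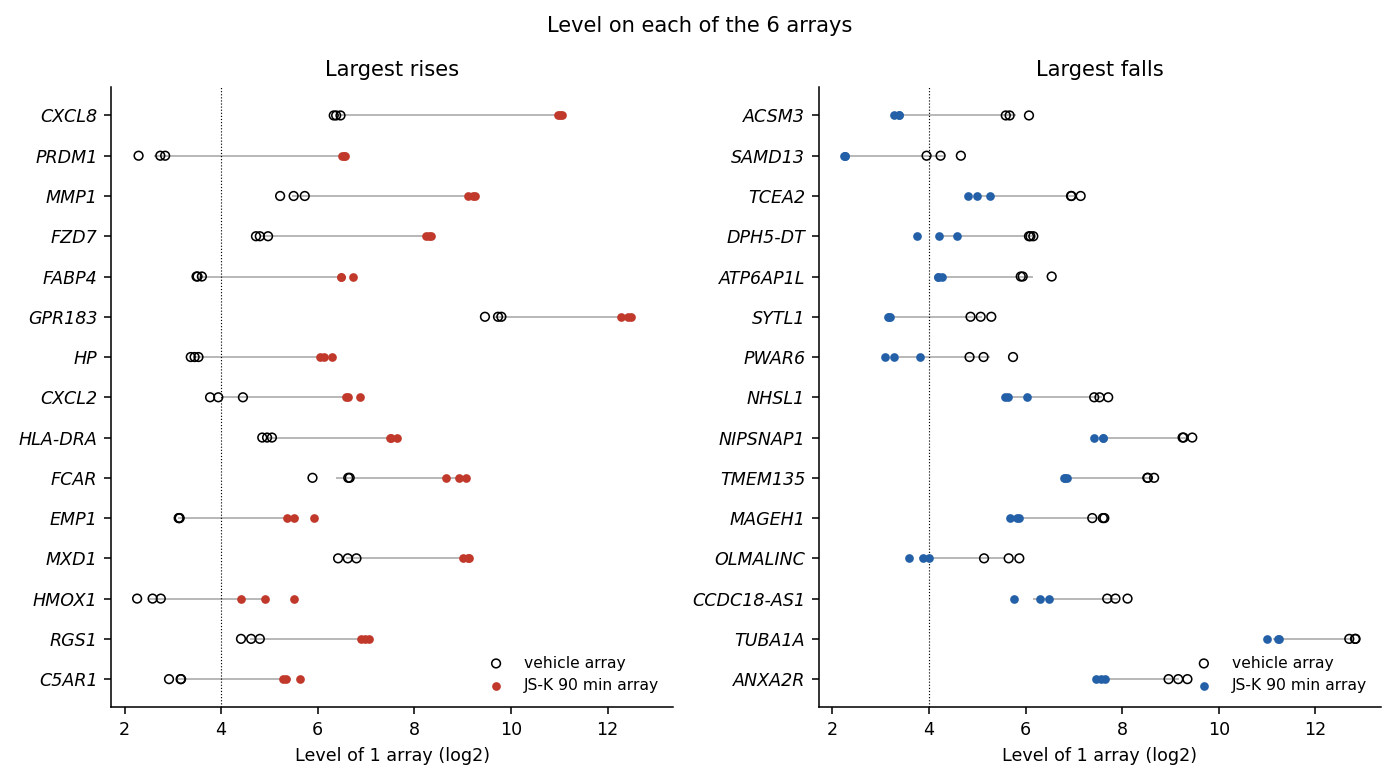
Level of each array (log2, x axis) for the 15 genes with the largest rises (left) and the 15 with the largest falls (right) outside the immediate early and cholesterol lists, with vehicle arrays as open circles and JS-K 90 min arrays as filled circles. Grey lines join the group means and the dotted line marks a level of 4. For these genes the arrays of the groups do not overlap, which was part of how they were chosen.

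Some secreted proteases, growth factors and genes of the urokinase system changed as well. The urokinase and coagulation list was split, with 4 of 19 higher (21.1%) and 3 lower (15.8%), against 4.03% and 5.62% of all genes. MMP1, interstitial collagenase, measured 5.73, 5.22 and 5.5 in vehicle and 9.22, 9.1 and 9.25 at 90 min, a rise of 3.71 ± 0.12. It stood apart from the other matrix proteases and inhibitors, of which the next largest change was RECK, a membrane inhibitor of such proteases, which fell by 0.75 on the log2 scale. The matrix protease list as a whole had 4 of 31 higher (12.9%) and 1 lower (3.23%), and 2 higher without vehicle replicate 1 or without vehicle replicate 3. PLAUR, the urokinase receptor, went from 8.45, 8.77 and 8.58 to 9.98, 9.94 and 10.04 (1.39 ± 0.10) with both other probe sets called the same way. THBD, thrombomodulin, which turns thrombin into an anticoagulant, rose by 1.47 ± 0.15. SERPINE2, an inhibitor of thrombin and urokinase, fell from 8.67, 8.74 and 8.78 to 7.63, 7.46 and 7.66 (−1.15 ± 0.10). HBEGF, a ligand of the epidermal growth factor receptor, measured 5.17, 5.22 and 5.16 in vehicle and 7.1, 6.82 and 7.18 at 90 min (1.85 ± 0.13). OSM, oncostatin M, rose by 1.13 ± 0.18, whereas VEGFA, the vascular growth factor, fell by 0.43 on the log2 scale. These were the 3 called of 29 growth factor ligands (6.9% higher and 3.45% lower), where the 2 higher became 5 without replicate 2 of the 4 h group. FZD7, a receptor of Wnt proteins, rose from 4.97, 4.72 and 4.8 to 8.34, 8.23 and 8.31 (3.46 ± 0.12), and it was the only called gene among 35 Wnt receptors and pathway members, with 3 higher without replicate 2 of the 4 h group.

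EMP1, a membrane protein induced in many growth responses, was near background in vehicle at 3.12, 3.14 and 3.13 and measured 5.37, 5.5 and 5.92 at 90 min (2.47 ± 0.24). Only 1 of its 5 other probe sets was called in the same direction.

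The immediate early genes set the frame of the response, with 21 of 38 higher and 2 lower and a median difference of 0.69. TRIB1, which encodes a pseudokinase, had the largest difference in the list (3.99 ± 0.15). The 2 lower members were MYC and GADD45B, both of the same size class as the larger falls (−1.48 ± 0.08 and −1.5 ± 0.11). GADD45A, a growth arrest gene of DNA damage and stress, went the same way, from 7.03, 7.2 and 7.3 to 6.12, 5.81 and 5.68 (−1.31 ± 0.21). CDKN1A, the inhibitor of cyclin-dependent kinases that p53 induces, was by contrast higher on all JS-K arrays, at 6.59, 6.67 and 6.87 against 5.21, 5.22 and 5.21 (1.5 ± 0.13). The list of p53 and DNA damage genes was thereby mixed, 3 of 29 higher and 4 lower.

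Feedback inhibitors of kinase signalling rose in part. DUSP1, which dephosphorylates stress kinases, went from 3.52, 3.54 and 3.93 to 6.19, 6.29 and 6.44 (2.64 ± 0.17). Neither of its other 2 probe sets was called. DUSP5 rose by 1.91 ± 0.22 and DUSP10 by 1.12 ± 0.16, and these were the 3 higher genes among 19 MAP kinase phosphatases and Sprouty inhibitors. DUSP6, a phosphatase of ERK kinases, was the 1 lower gene (−0.33 ± 0.08, adjusted p = 0.0236, limma), a call lost after quantile normalization or subtraction of array medians and without any 1 of vehicle replicates 2 and 3 or JS-K 90 min replicates 2 and 3 (adjusted p = 0.0523 to 0.105, limma). The decay factor ZFP36, which binds AU-rich elements of cytokine mRNAs, rose from 6.19, 6.22 and 6.47 to 7.88, 7.82 and 7.96 (1.60 ± 0.14), and BTG1, an antiproliferative partner of deadenylases, rose by 1.22 ± 0.10. XRN1, the cytoplasmic exonuclease that degrades decapped mRNA, fell by 0.62 on the log2 scale. Over 40 mRNA decay factors, of which 36 had a mean of at least 4, 4 were higher (10%) and 3 lower (7.5%). Among all genes at that level 8.05% were higher and 10.5% lower.

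Among transcription factors, PRDM1, also known as Blimp-1, a repressor in maturing lymphoid and myeloid cells, gave the second largest difference outside the early list. It measured 2.29, 2.84 and 2.74 in vehicle and 6.54, 6.51 and 6.56 at 90 min (3.91 ± 0.18), with both other probe sets called higher. MXD1, a partner of MAX that opposes MYC, went from 6.8, 6.62 and 6.42 to 9.0, 9.12 and 9.11 (2.46 ± 0.10). MXD1 and MYC were the only called genes among 23 of the MYC network, in opposite directions, with 2 higher without JS-K 90 min replicate 1 and 4 without replicate 2 of the 4 h group. Lineage factors of myeloid cells were otherwise split, with 5 of 37 higher and 5 lower, or 3 lower without JS-K 90 min replicate 2. MEIS1, a homeobox factor of immature leukemic cells, fell from 10.37, 10.37 and 10.19 to 9.53, 9.34 and 9.43 (−0.88 ± 0.08). GFI1, a transcriptional repressor needed for granulocyte development, fell by 0.85 on the log2 scale. IKZF1, a lymphoid and stem cell factor, was called higher by 0.80 ± 0.07, but of its 8 other probe sets 3 were called higher and 1 lower, and the mean of its probe sets was not called (adjusted p = 0.0829, limma).

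KLF6, a zinc finger factor of the Krüppel family, measured 8.96, 8.78 and 8.97 in vehicle and 11.31, 11.26 and 11.32 at 90 min (2.39 ± 0.07). With KLF7 (1.27 ± 0.25), KLF9 (1.22 ± 0.19) and KLF10 (0.28 ± 0.08) it made up the 4 called of 18 KLF and SP factors, none of them lower. The call of KLF10 was lost without vehicle replicate 2 (adjusted p = 0.166, limma) and without any 1 of vehicle replicate 3 and the 3 JS-K arrays, and with the replicate block over 12 arrays (adjusted p = 0.0636). Without replicate 2 of the 4 h group or with that block 1 member of the list was lower. The TGF-beta and SMAD list had 7 of 28 higher and none lower, or 4 higher with probe sets averaged and 1 lower without replicate 2 of the 4 h group. ID1, an inhibitor of helix-loop-helix factors, rose by 1.74 ± 0.20, SKIL, a corepressor of SMADs, by 1.41 ± 0.12, and LTBP1, which anchors latent TGF-beta, by 1.01 ± 0.10. Of 30 cytoskeletal genes known as SRF targets, 6 rose and none fell, by 0.38 to 0.76, among them TPM4, a tropomyosin (0.74 ± 0.11), and SRF itself (0.68 ± 0.10). Notch pathway genes had 3 of 26 higher, with LFNG, which modifies Notch receptors, at 0.81 ± 0.13.

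The NF-kB system gave few calls of its own, 1 higher and 1 lower among 32 factors and inhibitors, which is 3.12% each. The higher count was 5 after quantile normalization, a fit with 1102 genes higher in all, 4 with the 6 arrays blocked by replicate number and 2 with the 6 arrays alone, so its place against the share over all genes depends on these settings. NFKBIZ, an inducible nuclear cofactor, went from 6.7, 6.51 and 6.31 to 7.55, 7.56 and 7.78 (1.12 ± 0.19), and REL fell by 0.55 on the log2 scale. The feedback inhibitors NFKBIA (0.49 ± 0.16, adjusted p = 0.0937) and TNFAIP3 (0.27 ± 0.15, adjusted p = 0.386) did not pass the test in limma. NFKBIA passed it in other fits, at 0.017 with the 6 arrays blocked by replicate number and 0.03 after quantile normalization. NFKBIA measured 8.02, 7.83 and 7.85 in vehicle and 8.76, 8.15 and 8.27 at 90 min, so the groups did not overlap. For TNFAIP3 they did, with 6.71, 7.11 and 6.82 against 7.1, 7.07 and 7.28.

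**Figure D4:**
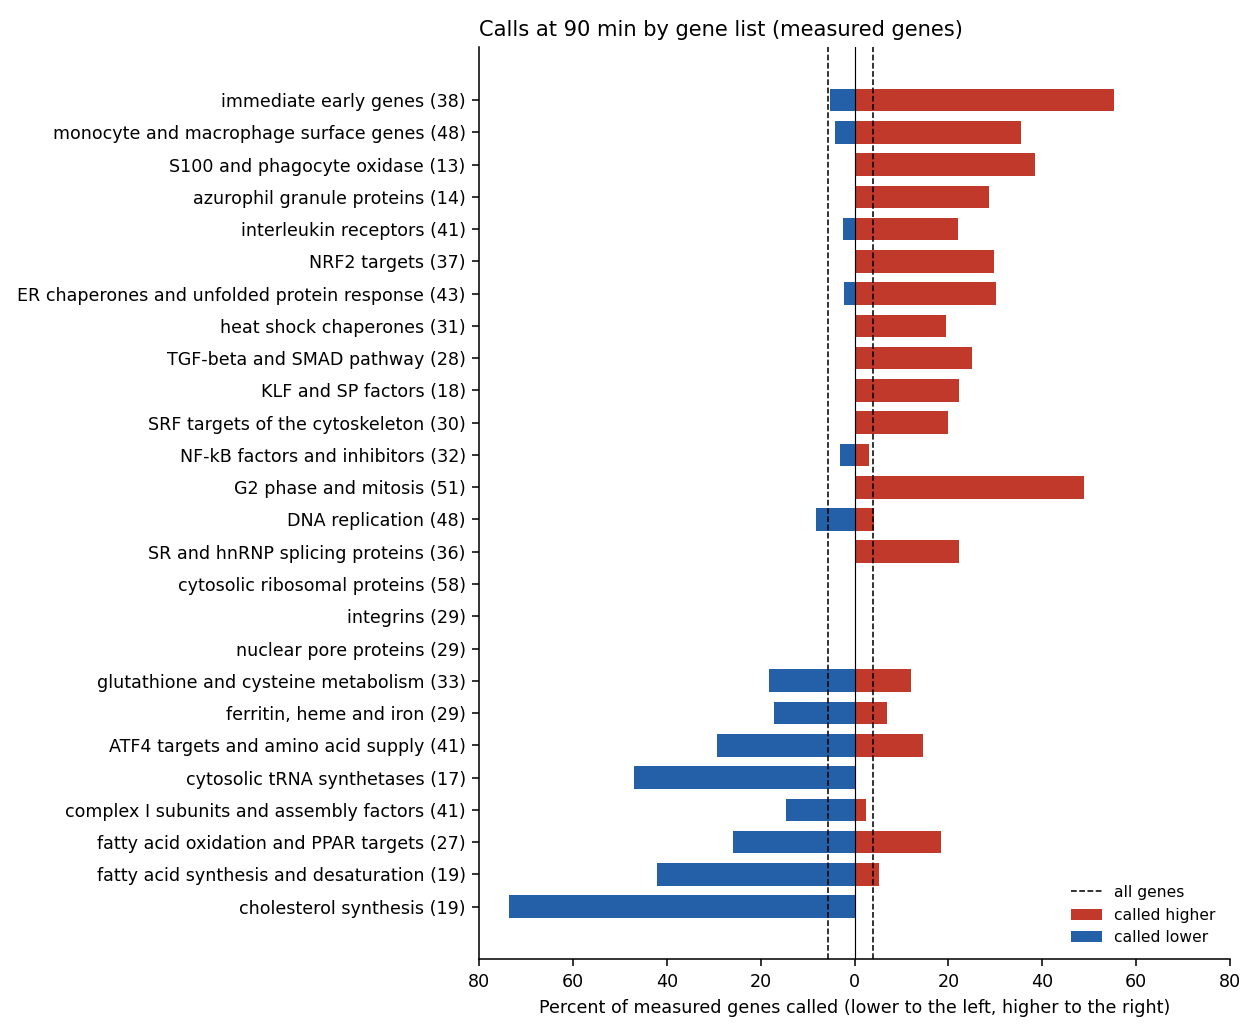
Percent of measured genes called higher (red, to the right) and lower (blue, to the left) at 90 min for 26 gene lists, with the number measured in brackets and dashed lines at the shares over all genes (4.03% and 5.62%). The bars of G2 phase and mitosis and of monocyte surface genes lie mostly to the right, those of lipid synthesis and tRNA synthetases mostly to the left, and ribosomal proteins, integrins and nuclear pore proteins have none.

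Lipid metabolism fell beyond the cholesterol pathway, where 14 of 19 genes were lower. Among genes of fatty acid synthesis and desaturation 8 of 19 were lower and 1 higher, with a median of −0.40. SREBF1, which encodes the transcription factor that drives this pathway, went from 6.61, 6.85 and 6.84 to 5.24, 5.24 and 5.18 (−1.55 ± 0.18). SCD, the desaturase that makes oleate, went from 12.65, 12.91 and 12.75 to 11.43, 11.51 and 11.57 (−1.27 ± 0.07), with all 3 other probe sets called lower. The groups lay apart for both genes. ACSS2, which makes acetyl-CoA from acetate, fell by 1.22 on the log2 scale, as did fatty acid synthase, FASN.

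Fatty acid handling was split between storage and uptake on the one side and mitochondrial oxidation on the other, 5 of 27 higher and 7 lower. The higher count was 3 without vehicle replicate 1 and the lower count 4 after subtraction of array medians. FABP4, a fatty acid binding protein of macrophages and fat cells, measured 3.6, 3.49 and 3.51 in vehicle and 6.73, 6.49 and 6.48 at 90 min (3.04 ± 0.13). PLIN2, the coat protein of lipid droplets, went from 8.75, 8.56 and 8.64 to 10.77, 10.65 and 10.8 (2.09 ± 0.07). CD36, a scavenger receptor that takes up oxidised lipoprotein and fatty acids, went from 8.84, 8.69 and 8.76 to 10.5, 10.64 and 10.79 (1.88 ± 0.08). ACSM3, a mitochondrial acyl-CoA synthetase of medium chains, showed the largest fall outside the cholesterol list, from 5.67, 5.59 and 6.07 to 3.37, 3.38 and 3.27 (−2.43 ± 0.14), and its other probe set was also called lower. The called falls of the list ranged from −0.25 to −2.43.

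Of 37 NRF2 targets, 11 rose and none fell, although the median was 0.04. As many as 3 were lower without replicate 2 of the 4 h group, 2 with the 6 arrays alone and 1 with the replicate block over 12 arrays. Thioredoxins and peroxiredoxins went both ways, 4 of 26 higher and 4 lower. HMOX1, heme oxygenase, measured 2.75, 2.26 and 2.58 in vehicle and 5.5, 4.41 and 4.91 at 90 min, a difference of 2.41 ± 0.30 that starts in low signal. NQO1, a quinone reductase, was already high at 9.0, 9.09 and 9.1 and reached 10.01, 10.01 and 10.04 (0.95 ± 0.09), with both other probe sets called higher. TRIM16 rose by 1.09 ± 0.15, EPHX1, an epoxide hydrolase, by 0.79 ± 0.16 and SQSTM1, an autophagy receptor, by 0.73 ± 0.07. None of the 4 other SQSTM1 probe sets was called, and the mean of its probe sets gave an adjusted p of 0.0683 (limma).

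In glutathione metabolism a cystine transporter and a subunit of the first synthetic enzyme rose, while both enzymes that turn homocysteine into cysteine fell. SLC7A11, the cystine transporter, went from 8.17, 8.33 and 8.17 to 9.01, 8.81 and 9.01 (0.72 ± 0.09), and GCLM, the modifier subunit of glutamate-cysteine ligase, from 9.25, 9.5 and 9.57 to 10.06, 10.09 and 10.21 (0.68 ± 0.09). CTH, which makes cysteine from cystathionine, went from 9.0, 8.67 and 8.89 to 7.85, 7.62 and 7.71 (−1.13 ± 0.12), and CBS, the step before it, from 6.31, 6.64 and 6.65 to 5.17, 5.52 and 5.55 (−1.12 ± 0.17). For each of these 4 genes the groups were separate. Over the 33 genes of the list 4 were higher and 6 lower, and the lower count was 3 without vehicle replicate 2 or JS-K 90 min replicate 2 and 2 after subtraction of array medians. The higher count was 2 without JS-K 90 min replicate 2.

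The glutathione transferases, which can catalyse the release of nitric oxide from JS-K, gave no call of a rise. GSTA4, a transferase for lipid aldehydes, fell from 7.5, 7.61 and 7.5 to 6.26, 5.85 and 6.28 (−1.41 ± 0.16), and the list had 3 of 23 lower and none higher, with 1 higher without replicate 2 of the 4 h group. That count was 1 without vehicle replicate 2, vehicle replicate 3, JS-K 90 min replicate 2 or JS-K 90 min replicate 3. GSTP1, an abundant transferase, measured 11.35, 11.82 and 11.62 in vehicle and 11.38, 11.27 and 11.35 at 90 min and did not pass the test (−0.26 ± 0.13, adjusted p = 0.344, limma). TXNIP, the inhibitor of thioredoxin that also limits glucose uptake, fell from 9.15, 8.92 and 8.97 to 7.77, 7.83 and 7.88 (−1.19 ± 0.08) with both other probe sets.

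Genes of nitric oxide synthesis and sensing had 4 of 28 higher (14.3%) and 2 lower (7.14%), against 4.03% and 5.62% of all genes. GUCY1A2, a subunit of the guanylate cyclase that binds nitric oxide, went from 4.9, 3.74 and 4.26 to 5.98, 5.88 and 6.11 (1.69 ± 0.24, adjusted p = 0.000671, limma), and 2 of its 5 other probe sets were called the same way. ASS1, which works in the regeneration of arginine, fell from 11, 11 and 11.05 to 10.4, 10.36 and 10.37 (−0.64 ± 0.08). The count of 4 higher genes was 1 without vehicle replicate 3 or JS-K 90 min replicate 1 and 2 without vehicle replicate 2, JS-K 90 min replicate 2 or JS-K 90 min replicate 3. The 2 lower genes were 1 without any of these arrays in turn. In the heme and iron list 2 of 29 were higher and 5 lower. FECH, which inserts iron into heme, fell by 0.84 on the log2 scale, from 9.4, 9.25 and 9.37 to 8.49, 8.43 and 8.58, and PPOX, an earlier step of heme synthesis, fell by 0.75. Only 3 were lower without vehicle replicate 3 or JS-K 90 min replicate 2. SLC39A10, a zinc importer, fell by 0.67 on the log2 scale and was the only called gene among 22 of zinc handling and metallothioneins. The response to low oxygen was mixed, 6 of 34 higher (17.6%) and 4 lower (11.8%). The higher genes included ANKRD37 (1.27 ± 0.15) and the glycolytic regulator PFKFB3 (0.87 ± 0.11). INSIG2, a brake on sterol synthesis, was among the lower genes (−0.81 ± 0.08).

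A minority of protein folding genes rose, by small amounts. In the list of endoplasmic reticulum chaperones and the unfolded protein response, 13 of 43 were higher and 1 lower, with a median of 0.14. CRELD2 measured 8.71, 8.75 and 8.68 in vehicle and 9.69, 9.52 and 9.76 at 90 min (0.94 ± 0.10), and DNAJB11, a cochaperone of BiP, went from 9.99, 9.86 and 9.96 to 10.75, 10.82 and 10.74 (0.83 ± 0.09). SDF2L1 rose by 0.95 ± 0.20. The called rises ranged from 0.26 to 0.95, so none reached 2-fold. The heat shock chaperone list had 6 of 31 higher and none lower, 1 of which, DNAJB9, an ER cochaperone, is counted in both lists. The others included DNAJA1 (0.58 ± 0.08) and HSPH1 (0.52 ± 0.06). BAG3, a cochaperone of HSP70, rose by 0.59 ± 0.14, a call lost without vehicle replicate 1, JS-K 90 min replicate 1 or JS-K 90 min replicate 3 (adjusted p = 0.0719, 0.0626 and 0.0763, limma).

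The amino acid arm of the stress response went the other way. Among 41 ATF4 targets and genes of amino acid supply, 12 were lower and 6 higher. After subtraction of array medians 7 were lower. ASNS, asparagine synthetase, went from 8.14, 8.36 and 8.43 to 6.91, 6.76 and 6.82 (−1.48 ± 0.25). PPP1R15A, the phosphatase subunit that reverses phosphorylation of eIF2 alpha, rose from 6.31, 6.68 and 6.54 to 8.31, 8.34 and 8.17 (1.76 ± 0.16), and the factor ATF5 rose by 1.16 ± 0.17. Cytosolic tRNA synthetases, which charge tRNAs with amino acids, had 8 of 17 lower and none higher, with a median of −0.14. AARS1 fell from 10.41, 10.44 and 10.4 to 9.76, 9.64 and 9.66 (−0.73 ± 0.08). The other called members fell by 0.25 to 0.46 on the log2 scale, and after subtraction of array medians 2 of the 17 were called. Mitochondrial tRNA synthetases had 2 of 15 lower, PARS2 (−0.94 ± 0.17) and IARS2 (−0.40 ± 0.05). Of amino acid transporters, 5 of 37 were higher and none lower, and that count was 3 without any 1 of vehicle replicates 2 and 3 or the 3 JS-K arrays.

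Genes of G2 phase and mitosis were higher as a group, 25 of 51 with none lower and a median of 0.28, all of them with a mean of at least 4. The changes were small. NDC80, a kinetochore protein, measured 10.24, 10.04 and 10.09 in vehicle and 10.68, 10.63 and 10.62 at 90 min (0.52 ± 0.07). KIF14, a kinesin of cytokinesis, went from 10.72, 10.67 and 10.62 to 11.17, 11.2 and 11.21 (0.52 ± 0.08), and ANLN, anillin, from 10.53, 10.52 and 10.47 to 10.89, 11.14 and 11.02 (0.50 ± 0.08). The called rises ranged from 0.28 to 0.56, and the count was 16 without vehicle replicate 2 or without JS-K 90 min replicate 3. Of DNA replication genes 2 of 48 were higher (4.17%) and 4 lower (8.33%), with a median of −0.09. All 48 had a mean of at least 4, and both shares lay under the 8.05% and 10.5% of all genes at that level. RPA3, of the single-strand binding complex, fell by 0.55 on the log2 scale and RFC4, of the clamp loader, by 0.38. The lower count was 2 without vehicle replicate 3, JS-K 90 min replicate 1 or JS-K 90 min replicate 2, and 10 without replicate 2 of the 4 h group, which enters only through the shared spread. CCNG1, cyclin G1, fell from 12.22, 12.39 and 12.44 to 11.81, 11.79 and 11.75 (−0.57 ± 0.06).

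Some survival genes of the BCL2 family rose. BCL2A1, an NF-kB-induced inhibitor of apoptosis, went from 10.99, 10.96 and 10.88 to 12.05, 12.03 and 11.98 (1.08 ± 0.05), and MCL1, a short-lived inhibitor, from 10.26, 10.39 and 10.36 to 11.14, 11.29 and 11.24 (0.88 ± 0.07). HTRA2, a mitochondrial protease that promotes death, fell by 0.81 on the log2 scale and BNIP3L, a receptor for mitophagy, by 0.52. Over BCL2 family genes and caspases 5 of 32 were higher and 3 lower, and the higher count was 2 without vehicle replicate 1, vehicle replicate 2, JS-K 90 min replicate 2 or JS-K 90 min replicate 3.

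Some RNA processing genes were slightly higher. Among SR and hnRNP splicing proteins 8 of 36 rose and none fell, by 0.20 to 0.68, and 3 did so when the probe sets of a gene were averaged. Without replicate 2 of the 4 h group 1 was lower. CLK1, a kinase of SR proteins, went from 9.09, 9.01 and 9.1 to 9.62, 9.73 and 9.65 (0.60 ± 0.08). DDX5, an RNA helicase, rose by 0.96 ± 0.13 and DDX21, a helicase of the nucleolus, by 0.44 ± 0.05. Ribosome biogenesis had 6 of 50 higher and 1 lower, with NIP7 (0.59 ± 0.09) and UTP14A (0.58 ± 0.07) first, and 12 higher without replicate 2 of the 4 h group. No gene for a cytosolic ribosomal protein was called among 58 in limma (0 higher and 3 lower at an unadjusted p under 0.05), nor any of 29 nuclear pore proteins (6 higher and 3 lower at an unadjusted p under 0.05). Without replicate 2 of the 4 h group 6 of the ribosomal proteins were lower and 2 pore proteins were called each way. H2BC12, a histone H2B gene, measured 8.0, 7.73 and 7.95 in vehicle and 9.85, 9.68 and 9.72 at 90 min (1.86 ± 0.09). It was the only higher gene among 45 core histone genes, whose sequences are similar enough that probe sets may share signal.

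Several mitochondrial genes were lower, but the shares of some mitochondrial lists were near or below the background. Mitochondrial ribosomal proteins had 5 of 75 lower (6.67%) and 5 higher, and mitochondrial DNA maintenance and transcription 4 of 33 lower (12.1%) and 2 higher. Leaving out 1 array gave 3 to 10 and 3 to 5 lower, where the 10 came without replicate 2 of the 4 h group. Among all genes with a mean of at least 4, 10.5% were lower and 8.05% higher. NIPSNAP1, a protein of the mitochondrial surface and matrix, was among the largest falls, from 9.25, 9.45 and 9.27 to 7.42, 7.61 and 7.61 (−1.78 ± 0.11), with its other probe set also called. PPARGC1A, the coactivator of mitochondrial biogenesis, fell from 6.85, 6.72 and 6.27 to 5.77, 5.74 and 5.73 (−0.87 ± 0.17), and the deacetylase SIRT3 of the mitochondrial matrix fell by 1.06 on the log2 scale. Complex I subunits and assembly factors had 6 of 41 lower (14.6%) and 1 higher (2.44%), with a median of −0.13. NDUFB5 fell by 0.36 on the log2 scale. That count of 6 was 1 after subtraction of array medians, 13 without replicate 2 of the 4 h group, and 2 or 3 without any 1 of vehicle replicates 2 and 3 and JS-K 90 min replicates 2 and 3. DEPTOR, an inhibitor of mTOR, fell from 7.6, 7.32 and 7.31 to 6.11, 5.94 and 6.13 (−1.35 ± 0.24), whereas the kinase SGK1 and the insulin receptor substrate IRS2 rose by 0.99 ± 0.09 and 0.71 ± 0.07.

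The largest falls outside named pathways were spread over unrelated functions. TCEA2, a transcription elongation factor, measured 6.94, 6.95 and 7.14 in vehicle and 4.8, 4.99 and 5.27 at 90 min (−1.99 ± 0.22), and neither of its other 2 probe sets was called. TUBA1A went from 12.7, 12.83 and 12.82 to 10.99, 11.22 and 11.24 (−1.63 ± 0.09), and as a member of a family of closely similar tubulins its probe set may hold signal of others. TMEM135, a protein of peroxisomes and mitochondria, fell by 1.75 on the log2 scale, SYTL1, which tethers Rab27 vesicles, fell by 1.90 and SAMD13 fell by 2.02, the last 2 into low signal. MAGEH1, ANXA2R, NHSL1 and ATP6AP1L were the other protein-coding genes among these falls, with differences of −1.75, −1.60, −1.81 and −1.91. UBE2L6, the conjugating enzyme of the interferon-induced modifier ISG15, fell by 1.04 on the log2 scale. Complement and interferon-stimulated genes had 5 of 44 lower and 2 higher, and the lower count was 2 or 3 without any 1 of vehicle replicates 2 and 3 or the 3 JS-K arrays. The higher count was 0 or 1 without any 1 of the 6 arrays.

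Long non-coding RNAs were lower more often than protein-coding genes. Of 274 with a mean of at least 4, 18.6% were lower and 5.47% higher, against 10.2% and 8.18% of 9152 protein-coding genes. The strand that the array reads depends on the labelling, and the labels do not say how target from the whole-transcript kit was matched to it, so an antisense value may hold signal of the opposite strand. DPH5-DT, a divergent transcript at DPH5, went from 6.07, 6.1 and 6.16 to 4.2, 3.76 and 4.58 (−1.93 ± 0.23), while DPH5 itself did not pass the test (−0.44 ± 0.15, adjusted p = 0.0927, limma). Of the 4 other DPH5 probe sets 2 were called lower, and the mean of its probe sets was too (−0.47, adjusted p = 0.00755, limma). CCDC18-AS1 went from 8.11, 7.69 and 7.86 to 6.48, 5.75 and 6.29 (−1.71 ± 0.23), and CCDC18 stood at 0.08 ± 0.16. RUSC1-AS1 went from 9.66, 9.91 and 9.99 to 8.06, 8.26 and 8.47 (−1.59 ± 0.12) and RUSC1 stood at 0.05 ± 0.16, so neither of these antisense falls came with a called change of its partner. Whether the changes of transcript and partner differ was not tested. The family of antisense and divergent transcripts had 34 of 1025 lower (3.32%) and 12 higher (1.17%), against 5.62% and 4.03% over all genes. Most members lay in low signal, where few genes were called. Of the 154 members with a mean of at least 4, 25 were lower and 10 higher. Among all 9551 genes at that level 1007 were lower (10.5%) and 769 higher (8.05%), so the lower share of the family was above the background there. The lower count was 21 without JS-K 90 min replicate 2 and 58 in the blocked fit of the 6 arrays. OLMALINC and PWAR6 fell by 1.73 and 1.84 on the log2 scale, and SNHG19, which hosts a small nucleolar RNA, by 0.89.

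Zinc finger genes with a ZNF number had 26 of 425 lower (6.12%, against 5.62% of all genes) and 10 higher (2.35%, against 4.03%), so the share lower was near the background. ZNF133 fell from 6.83, 7.14 and 7.1 to 5.12, 5.73 and 5.39 (−1.60 ± 0.27) and ZNF341, a factor that controls STAT3, fell by 1.27 on the log2 scale with both other probe sets. The lower count was 16 without JS-K 90 min replicate 1 and 15 without JS-K 90 min replicate 2. The higher count was between 4 and 6 without any 1 of vehicle replicates 1, 2 and 3 or JS-K 90 min replicates 2 and 3.

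Large rises were more frequent among short genes, although only 38 of the 112 protein-coding genes at least 2-fold higher spanned under 10 kb. Of protein-coding genes with a mean of at least 4 and a span under 10 kb, 2.14% were at least 2-fold higher, against 0.982% of those of 10 to 100 kb and 1.08% of longer ones. The median span was 19.2 kb for the 112 genes at least 2-fold higher, 25.9 kb for the 109 at least 2-fold lower and 30.8 kb for all 9152. Genes of the immediate early and cholesterol lists were not left out of these groups. Over all called genes the medians were close to that, 28.8 kb for higher and 29.4 kb for lower genes.

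The later arrays show where the first changes went, as levels only, since their spikes differ and vehicle is the only control for all times. CXCL8 stood at 11.86 at 4 h and 11.12 at 24 h, close to its 90 min level of 11.02. MMP1 (9.07, then 12.14), FCAR (10.11, then 10.99), C5AR1 (7.49, then 9.95), EMP1 (7.47, then 11.39) and CDKN1A (8.63, then 10.75) stood higher at 24 h than at 90 min. HLA-DRA held at 7.53 at 4 h and stood at 4.34 at 24 h, under its vehicle mean, while HP (6.11, then 4.39), CXCL2 (6.13, then 4.66) and EGR3 (5.44, then 3.67) also returned toward vehicle. Among the falls, ACSM3 stayed at 3.46 and 3.2 and NIPSNAP1 at 7.41 and 7.56. TXNIP stood at 8.0 at 4 h and 10.6 at 24 h, above vehicle, and TUBA1A at 12.31 and 13.46.

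**Figure D5:**
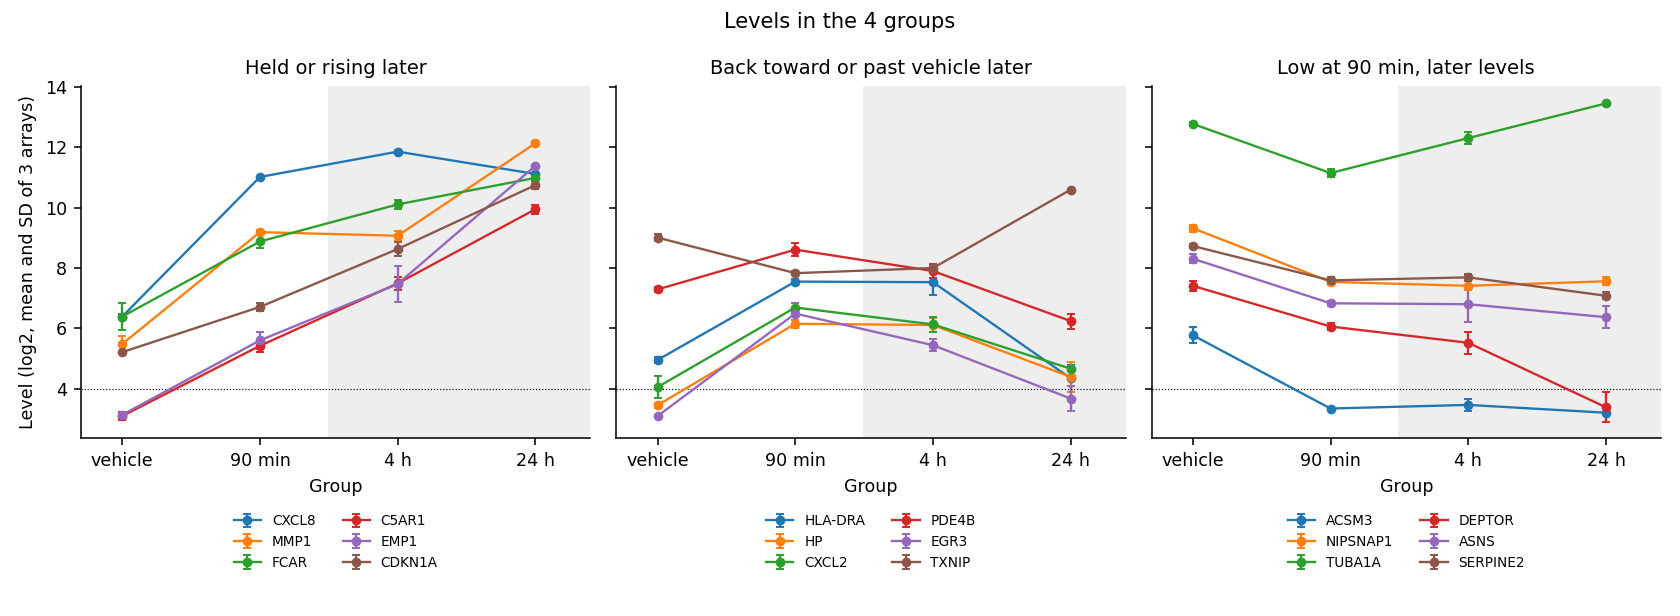
Mean level (log2, y axis) with SD of 3 arrays in vehicle and after 90 min, 4 h and 24 h of JS-K (x axis) for 18 genes, where the shaded times lack matching spikes and the dotted line marks a level of 4. EMP1 climbs from 3.13 to 11.39, HLA-DRA rises and then stands at 4.34, and TXNIP falls and then stands at 10.6.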

How the data were processed

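RNA of 12 U937 cultures was measured on arrays of 54675 probe sets. The authors deposited log2 values, made with GCRMA and Affymetrix Expression Console per the submitters' processing notes. Per the labels' protocols, 200 ng of Trizol-extracted RNA was labelled from random hexamers with a whole-transcript kit. Of the probe sets, 41097 carried 1 gene symbol, 1801 several and 11777 none. Each of 19775 genes was represented by its brightest probe set, judged by the mean of the 12 arrays. All 12 arrays entered 1 limma 3.58.1 fit (R 4.3.3, lmFit and eBayes with trend), which left 8 residual degrees of freedom. P-values were adjusted by Benjamini-Hochberg over all genes and called under 0.05. On simulated data with 19775 genes, the fit called 96 of 100 genes changed 2-fold for this comparison.

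Over all genes, deviations of same-numbered arrays from their group means correlated at 0.218, 0.229 and 0.128, against −0.266 to 0.086 for other pairs. Among genes with a mean of at least 4, vehicle replicate 3 correlated more with JS-K 90 min replicate 2 (0.152) than with replicate 3 (0.124). Whether the numbers pair the cultures is therefore not settled, and the main fit did not use them. The labels do not tell whether replicates came from separate days, and the number of arrays limits the precision. Named genes were the 15 largest rises and 15 largest falls with arrays that do not overlap, members of each list, and a fixed set. From each list up to 4 called members were taken by the largest absolute difference, with both directions pooled. Partner genes of named antisense or divergent transcripts were added. The members and lists were chosen with earlier results of these data known. Promoters came from the RefSeq table of GRCh38.p14. Alternatives varied the normalization, probe set choice, filter, spread model, block and arrays.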

Additional observations from a re-analysis of the deposited data

Results flagged for a closer look

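Probe sets with no gene symbol took no part in the gene comparison but carried signal. Of 11721 such probe sets in the same fit, 119 were called higher and 193 lower at 90 min, 40 and 66 of them by at least 2-fold. The poly-A spikes, which are no measure of the cells, averaged 7.02 at 4 h and 8.47 at 24 h against 3.04 in vehicle.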

How the results depend on the processing

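Against 796 higher and 1111 lower genes, array weights gave 6207 and 3320, and a test against a fold of 1.5 gave 74 and 60. The lower count was 622 after subtraction of array medians and 1736 with the replicate block in a fit of 6 arrays, while the replicate block over 12 arrays gave 819 and 1124. Leaving out 1 of the 6 compared arrays gave fewer calls, 549 to 626 higher and 631 to 881 lower. Without replicate 2 of the 4 h group, which is outside the comparison, 1063 were higher and 1549 lower. Of genes changed at least 2-fold (120 and 156), 76 and 94 were called when probe sets of 1 gene were averaged, 72 and 55 with the test against 1.5-fold, and 202 and 284 with every probe set tested on its own, and leaving out 1 array gave 108 to 122 and 125 to 166. KIF1B reversed to 0.11 with the mean of its probe sets (adjusted p = 0.915, limma). CCDC18 turned to −0.02 with the mean of its probe sets, −0.06 with array weights, and between −0.04 (without vehicle replicate 2) and 0.15 when 1 array was left out, and RUSC1 to −0.01 with array weights, and neither was called. Of 304 named genes 224 lost a call under at least 1 alternative, 97 of them under one other than the 1.5-fold test. The cause of these shifts was not tested.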
